A study of Mus musculus with 172 samples.

Results

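The endocytic receptors Lrp2, Cubn and Amn, the adaptor Dab2, the receptor chaperone Lrpap1 and the lipid and retinol carriers Apoe, Apoa1, Apob, Ttr and Rbp4 were followed in single cells of the mouse inner cell mass (ICM). These 10 genes were taken by symbol from 49671 gene rows because they make up the absorptive and secretory equipment of extraembryonic endoderm. They were chosen by symbol but with the levels of these genes in these same cells in view, above all the gap between PrE and epiblast, so their pattern over the lineages is given as a description.

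Visceral endoderm, the descendant of primitive endoderm (PrE), takes up maternal proteins and lipids for the embryo before a placenta exists. Megalin (Lrp2) and cubilin (Cubn) are giant receptors on its apical surface. Cubilin has no membrane anchor of its own and reaches the surface in a complex with amnionless (Amn), while DAB2 links the tail of megalin to clathrin and the receptor-associated protein Lrpap1 escorts receptors of megalin's family through the endoplasmic reticulum. Apolipoproteins, transthyretin (Ttr) and retinol binding protein (Rbp4) are what such an epithelium secretes. Megalin is also known from trophectoderm (TE).

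Cells came from blastocysts of Oct4+/− inter se matings on mixed genetic backgrounds. OCT4 is the product of Pou5f1, and the labels name no other allele. The TE was lysed by immunosurgery and served to genotype the embryo, so that wild-type (WT), heterozygous (HET) and mutant (MUT) ICMs were compared from the same kind of cross. At embryonic day (E) 3.5 there were 29 MUT cells of 4 embryos and 58 WT/HET cells of 7 embryos (5 WT and 2 HET). At E4.5 there were 19 MUT cells of 2 embryos, and 37 epiblast (EPI) and 29 PrE cells of the same 6 WT/HET embryos (2 WT and 4 HET). The labels give no lineage for the E4.5 MUT cells, and the split of control cells into EPI and PrE was made by the study on the transcriptomes used here.

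The median depth in gene counts was 1318327 per E3.5 MUT cell, 1335828 per E3.5 WT/HET cell, 1681933 per EPI cell, 1772045 per PrE cell and 1609943 per E4.5 MUT cell, and 3 cells lay under 500000. The cells of each embryo were pooled into a sum, and the embryo is the replicate. Levels are in CPM, the count of a gene scaled to the size of its library, with edgeR's TMM scaling, and errors are SDs between embryos. In such sums fewer cells of a type and less RNA per cell cannot be told apart. All E3.5 cells shared one plate and all E4.5 cells another, so stage and plate cannot be told apart either. The PrE sum of WT embryo 6 rests on 2 cells. Pou5f1 followed its labels, at 2.75 to 5.67 CPM in E3.5 MUT against 199 to 435 CPM in WT/HET embryos, and at 0 counts in E4.5 MUT against 71.6 to 249 CPM in EPI sums. The 9 PrE markers fixed as a check summed to 2213 to 3485 CPM in PrE sums and to 5.09 to 25.3 CPM in EPI sums, and the 8 EPI markers to 174 to 343 CPM in PrE against 2166 to 3813 CPM in EPI.

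Lrp2, Cubn, Amn and Dab2 were together at 10 CPM or more in most PrE cells and in 1 cell of all other groups, so the 250 bases before their annotated starts are shown side by side (RefSeq, GRCm38.p6, 5′ to 3′ on the strand of the gene). Lrp2 lies at chr2:69586030-69586279 on the minus strand, Cubn at chr2:13491877-13492126 on the minus strand, Amn at chr12:111270846-111271095 on the plus strand and the first of the 2 starts of Dab2 at chr15:6299539-6299788 on the plus strand. Capitals mark a match to the GATA letters, which were TGATAA or TGATAG or AGATAA or AGATAG.
Lrp2: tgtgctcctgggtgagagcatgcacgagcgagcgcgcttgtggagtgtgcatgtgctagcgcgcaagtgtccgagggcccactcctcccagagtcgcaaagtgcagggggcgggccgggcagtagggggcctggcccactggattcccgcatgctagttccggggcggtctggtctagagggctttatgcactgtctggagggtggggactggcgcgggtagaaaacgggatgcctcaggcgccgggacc
Cubn: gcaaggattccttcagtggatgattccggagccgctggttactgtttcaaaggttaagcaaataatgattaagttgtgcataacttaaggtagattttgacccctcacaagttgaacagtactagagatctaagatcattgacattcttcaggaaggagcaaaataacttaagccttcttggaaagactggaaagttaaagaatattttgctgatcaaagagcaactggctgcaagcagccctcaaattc
Amn: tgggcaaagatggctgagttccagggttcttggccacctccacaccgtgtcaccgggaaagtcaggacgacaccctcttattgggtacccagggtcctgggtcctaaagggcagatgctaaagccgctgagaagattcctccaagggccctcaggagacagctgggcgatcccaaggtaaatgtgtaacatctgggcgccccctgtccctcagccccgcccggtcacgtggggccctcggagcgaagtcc
Dab2: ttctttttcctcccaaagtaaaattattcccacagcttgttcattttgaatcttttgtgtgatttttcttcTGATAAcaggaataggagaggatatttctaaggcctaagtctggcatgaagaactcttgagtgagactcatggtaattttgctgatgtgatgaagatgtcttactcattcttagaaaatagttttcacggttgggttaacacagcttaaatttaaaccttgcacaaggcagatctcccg

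The 4 windows differ widely in composition. G and C made up 66.4% of the Lrp2 window with 18 CpG pairs and 61.2% of the Amn window with 11, but 39.6% of the Cubn window and 36.8% of the Dab2 window with 2 pairs each. The window of the second Dab2 start (chr15:6386498-6386747) held 60.0% with 17 CpG pairs and no GATA match. The median over 32851 RefSeq promoters was 52.4% with 6 CpG pairs. Searched on both strands, the GATA letters matched once in the first Dab2 window and in none of the other 3, and they were found in 26.5% of all promoters. A SOX core (ACAAT, in 27.7% of promoters) was in none of the 4 windows.

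The receptors were low in E3.5 control ICMs. Megalin (Lrp2, 2:69424340-69586065, minus strand) ranged from 2.49 to 37.7 CPM over 7 WT/HET embryos with a median of 12.8 CPM. Cubilin (Cubn, 2:13276338-13491813, minus strand) ranged from 0 to 20.1 CPM with a median of 2.84 CPM, and most of it came from HET embryo 15 at 20.1 CPM and WT embryo 11 at 17.9 CPM. Amnionless (Amn, 12:111271095-111276426, plus strand), the membrane anchor of cubilin, stayed between 0 and 0.920 CPM. Thus at this stage the receptor that needs an anchor and the anchor itself were both near the floor in most embryos, while megalin was a little higher.

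In E4.5 PrE all 3 receptors were abundant. Lrp2 in PrE was 88.5 CPM in embryo 1, 1467 CPM in embryo 2, 395 CPM in embryo 4, 1147 CPM in embryo 5, 82.6 CPM in embryo 6 and 1078 CPM in embryo 7, so that 2 embryos lay far below the others. Cubn ran from 256 to 1350.0 CPM with a median of 798 CPM and Amn from 253 to 971 CPM with a median of 650.0 CPM. In EPI sums of the same embryos Lrp2 reached at most 3.41 CPM, Cubn at most 4.62 CPM and Amn at most 28.6 CPM. The lineages did not overlap for any of the 3. Their PrE minus EPI differences were 9.28 (standard error, SE, 1.15), 9.22 (SE 0.89) and 5.79 (SE 0.85) on the log2 scale.

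The adaptor and the chaperone followed the receptors but started from higher levels. Dab2 (15:6299788-6440712, plus strand) stood at 14.1 to 97.1 CPM (median 51.7) in E3.5 WT/HET embryos, at 0.728 to 70.8 CPM (median 19.7) in EPI and at 670.4 to 2758 CPM (median 1984) in PrE. Lrpap1 (5:35091501-35105766, minus strand) was at 583 to 983 CPM (median 849.5) at E3.5, at 218 to 442 CPM (median 341) in EPI and at 2882 to 4485 CPM (median 3998) in PrE. Every PrE sum exceeded every EPI sum for both genes. The PrE minus EPI difference was 6.28 (SE 0.82) for Dab2 and 3.54 (SE 0.20) for Lrpap1 on the log2 scale, and for Lrpap1 it was shared between a higher level in PrE and a lower one in EPI than at E3.5.

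Apoe (7:19696109-19699188, minus strand), the apolipoprotein ligand of these receptors, did not keep to one lineage. It was at 46.6 to 189 CPM (median 89.4) in E3.5 WT/HET embryos, at 1579 to 2128 CPM (median 1969) in EPI and at 766 to 2414 CPM (median 1812) in PrE. EPI and PrE overlapped, with a difference of -0.20 (SE 0.24) on the log2 scale, and both lay above all E3.5 embryos. Between genes, levels are compared per kilobase of exon. In PrE the order of mean CPM per kilobase was Lrpap1 (944 ± 151), Apoe (775 ± 308), Amn (346 ± 139), Dab2 (253 ± 115), Cubn (53.2 ± 30.5) and Lrp2 (42.5 ± 35.7, SD, n = 6 each). Of these neighbours Lrpap1 and Apoe, Amn and Dab2, and Cubn and Lrp2 lay within 1 SD of each other. The 2 giant receptors were the lowest of the machinery per kilobase, even though their CPM was near that of Amn.

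The remaining carriers were scarce. Apoa1 (9:46228580-46230466, plus strand), the main protein of high density lipoprotein, was at 7.65 to 30.1 CPM (median 17.4) in E3.5 WT/HET embryos, at 0 counts in all 6 EPI sums and at 0 to 7.35 CPM in PrE, where 3 of 29 cells held 82 counts together. Ttr, which carries thyroxine and retinol binding protein, had 128 counts in 8 of 29 PrE cells (0 to 6.43 CPM per embryo) and none in EPI or E3.5 WT/HET cells. Apob (12:7977648-8016835, plus strand), the scaffold of chylomicrons and very low density lipoprotein, had 48 counts in 6 of 58 E3.5 WT/HET cells and none at E4.5. Rbp4 (19:38116629-38125281, minus strand) had 0 counts in every cell, and 0 of 29 PrE cells allows a share of up to 10.3%. These reads are PCR copies without molecular identifiers, so limits and intervals cover counting error only. The uptake machinery was thus abundant in PrE at E4.5 while 4 of the 5 carriers were at or near 0.

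**Figure D1:**
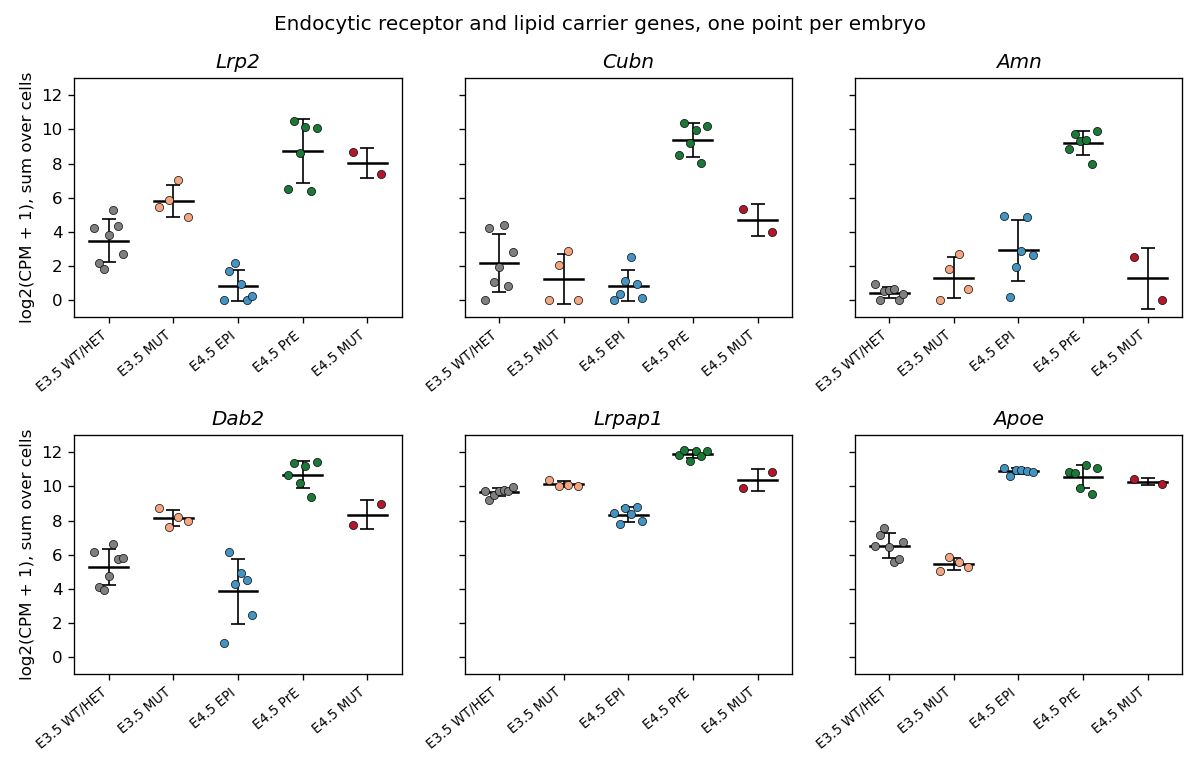
Level of Lrp2, Cubn, Amn, Dab2, Lrpap1 and Apoe, 1 panel a gene, as log2(CPM + 1) of embryo sums (vertical axis) in the 5 groups (horizontal axis). Each point is 1 embryo, with the mean as a bar and the SD as whiskers; the first 5 genes stand highest in PrE, while Apoe is high in all E4.5 groups.

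Counted against E3.5 WT/HET embryos, 7 members passed the filter on low counts for PrE and all 7 had no overlap between the groups, against a background of 20.4% of genes tested. Lrp2, Cubn, Amn, Dab2, Lrpap1 and Apoe were higher in PrE by 5.62 (SE 0.83), 6.79 (SE 0.97), 10.65 (SE 0.58), 5.29 (SE 0.51), 2.22 (SE 0.13) and 4.01 (SE 0.37) on the log2 scale. Apoa1 was lower by 3.53 (log2 difference -3.53, SE 1.22). For EPI 6 members passed and 3 had no overlap (background 19.6%), namely Apoe at 4.24 higher (SE 0.29), Lrpap1 at -1.30 (SE 0.18) and Apoa1, which was at least 349.8-fold lower in EPI when its 0 counts were set to a floor of 3 counts over the group. Between EPI and PrE 5 of 6 members that passed had no overlap, all higher in PrE, where the background was 9.01%. The median difference of the members was 6.04 on the log2 scale against -0.03 over all genes. The members had been chosen with their PrE and EPI levels in view, and Amn passed the filter for PrE through its PrE level. Nothing is read from the counts of this paragraph.

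Single cells showed how completely the machinery was assembled. Lrp2, Cubn and Amn were each at 10 CPM or more in 27 of 29 PrE cells (93.1%, exact Clopper-Pearson 95% interval 77.2 to 99.2%), and all 27 held Dab2 at that level as well. Cubn and Amn were together in 29 of 29 PrE cells, so the 2 incomplete cells were under 10 CPM for Lrp2. No cell of EPI (0 of 37, exact interval up to 9.49%), E3.5 WT/HET (0 of 58, up to 6.16%) or E3.5 MUT (0 of 29, up to 11.9%) held Lrp2, Cubn and Amn together. Per PrE cell Lrp2 ran from 0 to 4600 CPM (median 501), Cubn from 114 to 5038 CPM (median 799) and Amn from 166 to 1660 CPM (median 683). Lrp2 was therefore the most uneven of the 3 among PrE cells, as it was among PrE sums.

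Without OCT4 at E3.5 the adaptor was already high while the cubilin complex was not. Dab2 was 418 CPM in MUT embryo 10, 193 CPM in embryo 12, 296 CPM in embryo 17 and 254 CPM in embryo 19, against at most 97.1 CPM in the 7 WT/HET embryos. All 4 MUT embryos lay above all controls. Dab2 rose by 2.69 on the log2 scale (SE 0.47, adjusted p = 0.00661 by edgeR's quasi-likelihood test with Benjamini-Hochberg adjustment over 12075 genes). It was the only one of the 6 members in the test that was called, where 6.18% of all genes were, and it was called under every alternative tried (adjusted p 4.5e-06 to 0.0207).

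Megalin leaned the same way without passing the threshold. Lrp2 was 42.2, 57.7, 130.05 and 27.9 CPM in MUT embryos 10, 12, 17 and 19, and 3 of these exceeded the highest control, HET embryo 15 at 37.7 CPM. The difference was 2.23 on the log2 scale (SE 0.64, 95% interval 0.96 to 3.49, adjusted p = 0.0608), and the adjusted p of its alternatives ran from 0.0108 to 0.191. Without embryo 15 it was 2.68 with an adjusted p of 0.0287. In that HET embryo a single cell held Lrp2 at 377 CPM, Dab2 at 781 CPM and the TE keratin Krt18 at 1753 CPM, with Nanog at 0. The other 5 control cells with Lrp2 at 50 CPM or more, at 50.1 to 99.4 CPM, held Krt18 at 23.8 to 156 CPM and Nanog at 212 to 673 CPM. The PrE marker Gata6 was at 126 CPM in the cell of embryo 15 and at 22.6 to 169 CPM in the other 5. Those 5 held Sox17 at 0 to 24.9 CPM, Pdgfra at 0 to 26.9 CPM and Gata4 at 0.

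Lrpap1 was 1335, 1061, 1104 and 1028 CPM in the 4 MUT embryos, above the highest control at 983 CPM, with a difference of 0.52 (SE 0.15, adjusted p = 0.0570). Dab2 and Lrpap1 were the members without overlap between the groups, 2 of 6 against a background of 7.45%. Apoe went the other way, at 31.4, 56.03, 46.3 and 38.3 CPM in MUT against 46.6 to 189 CPM in WT/HET (difference -1.19, SE 0.36, adjusted p = 0.0683). MUT embryo 12 alone lay inside the control range. The adjusted p of Lrpap1 ran from 0.0254 to 0.155 over the alternatives and that of Apoe from 0.0111 to 0.164.

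Cubn was 0, 3.11, 6.35 and 0 CPM in MUT embryos 10, 12, 17 and 19 and lay within the range of the controls (difference -1.52, SE 1.53, 95% interval -4.52 to 1.48, adjusted p = 0.635). Amn was 0, 2.52, 5.49 and 0.549 CPM, too low to pass the filter. Apoa1 stood at 33.5, 10.0, 30.8 and 7.27 CPM against 7.65 to 30.1 CPM in controls, with a difference of 0.22 (SE 0.50, adjusted p = 0.860) whose sign turned when MUT embryo 10 or 17 was left out and when cells were weighted equally. The median difference of the 6 members was 0.37 on the log2 scale against -0.02 over all genes tested.

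Shares of cells with at least 1 count were compared as means over embryos in exact two-sided permutation tests over 330 splits, which allow no p below 0.00303. The share of Lrp2-positive cells was 73.8 ± 4.79% per MUT embryo and 36.8 ± 23.2% per control embryo (p = 0.0273, n = 4 and 7 embryos, exact permutation test). HET embryo 16 had Lrp2 in 6 of 7 cells (85.7%), above every MUT embryo, and the other 6 controls lay between 16.7 and 44.4%. For Apoe the shares were 83.8 ± 11.1% in MUT and 98.4 ± 4.20% in control embryos (p = 0.0242, exact permutation test). Of 10 such tests these 2 had an unadjusted p under 0.05, and 0 passed after Benjamini-Hochberg adjustment. At 10 CPM or more, Lrp2 and Dab2 were together in 17 of 29 cells without OCT4, from 4 embryos, and in 8 of 58 control cells, from 6 of 7 embryos. Cells of an embryo are not independent, and this difference was not tested over embryos.

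Marker sums at E3.5 are given beside these values. Calls in the marker lists stand beside 6.18% of all genes called in either direction. The 9 TE markers summed to 632 to 1137 CPM in MUT and to 211 to 766 CPM in WT/HET embryos with none of the 9 at 0, and 2 of the 7 tested were called higher. The 9 PrE markers summed to 118 to 224 CPM in MUT and 41.02 to 277 CPM in WT/HET embryos, with Sox17, Sox7 and Foxa2 at 0 in MUT. The 8 EPI markers summed to 394 to 1025 CPM in MUT and 717 to 1332 CPM in WT/HET embryos, and 4 of the 8 were called lower, with a median log2 difference of -2.77 over the list. The part of TE cells, or of fewer cells with EPI markers, in the level of Dab2 was not tested.

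**Figure D2:**
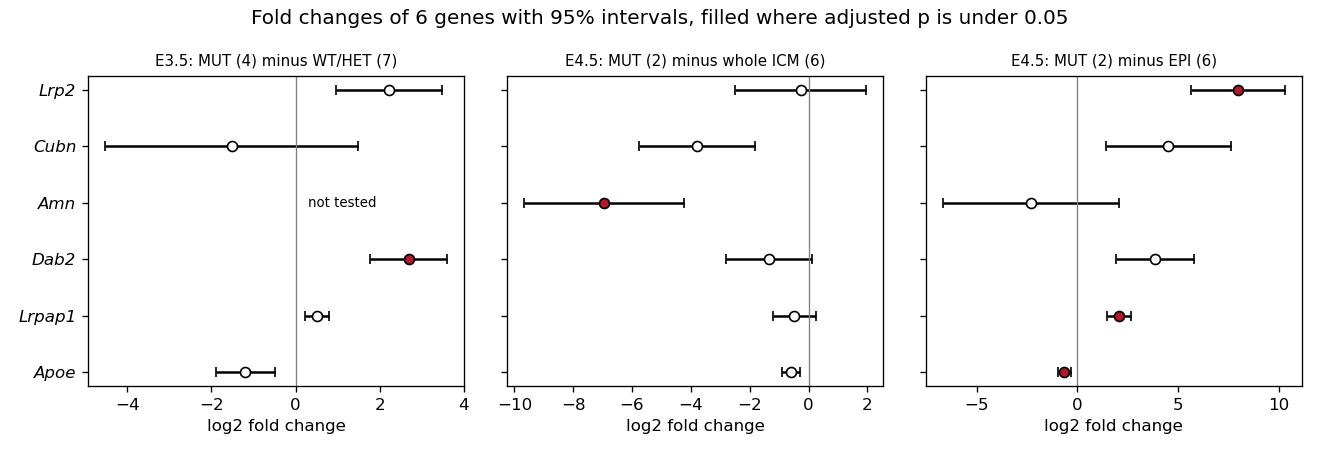
Log2 fold changes with 95% intervals (horizontal axes, with a scale of their own in each panel) of 6 genes in MUT minus control embryos at E3.5, MUT minus whole ICMs at E4.5 and MUT minus EPI at E4.5. Filled points had an adjusted p under 0.05, namely Dab2 in the first panel, Amn in the second, and Lrp2, Lrpap1 and Apoe in the third.

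At E4.5 the machinery was present in part in MUT ICMs. Against whole ICMs of the 6 control embryos, which do not depend on the assignment to EPI or PrE, Amn fell and the other members were not called. These ICMs hold the PrE cells whose high levels were in view when the members were chosen. Amn entered the test through these ICMs, since the MUT sums held 81 counts of it in all. No number of members against these ICMs is read as a result. Amn was 4.79 CPM in MUT embryo 3 and 0 in embryo 8, against 69.0 to 542 CPM (median 313) in control ICMs. The difference was -6.96 on the log2 scale (SE 1.38, adjusted p = 0.0163 by edgeR's quasi-likelihood test), and 1 of 8 members in the test was called where 7.37% of all genes were. With the 2 WT embryos as the only controls the call was lost (adjusted p = 0.179). Leaving out either MUT embryo or any control kept it.

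Cubilin lay near the threshold. Cubn was 39.9 CPM in embryo 3 and 15.0 CPM in embryo 8 against 47.3 to 874 CPM (median 339.6) in control ICMs (difference -3.79, SE 1.00, adjusted p = 0.0521, from 1.54e-05 to 0.244 over the alternatives). Megalin (Lrp2) overlapped, at 402 and 168 CPM against 15.1 to 950.4 CPM (median 309.9), with a difference of -0.27 (SE 1.13, 95% interval -2.49 to 1.955, adjusted p = 0.929). Its sign turned without control embryo 2, without MUT embryo 8, against WT embryos alone and with cells weighted equally.

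Dab2 was 213 and 490.4 CPM against 139.8 to 1716 CPM (difference -1.36, SE 0.75, 95% interval -2.82 to 0.11, adjusted p = 0.324), and the equal weighting of cells turned its sign. Lrpap1 was 967 and 1838 CPM against 1018 to 2984 CPM (difference -0.48, SE 0.38, adjusted p = 0.491). Apoe was 1363 and 1121 CPM against 1727 to 2191 CPM (difference -0.60, SE 0.16, adjusted p = 0.0569, from 0.00898 to 0.237). Cubn, Amn and Apoe had no overlap with the controls and were lower, 3 of 8 against a background of 24.7% in either direction. The median difference over the 8 members was -0.98 against -0.10 over all genes.

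Apoa1 was 0 in embryo 3 and 165 CPM in embryo 8, while the control ICMs held 0 to 2.89 CPM. The 2043 counts of embryo 8 came from 3 of its 8 cells, at 957, 100.2 and 97.2 CPM, and 86.4% of them from the first. Only that first cell among the 19 MUT cells held both Gata4 (13.5 CPM) and Sox17 (127 CPM) above 10 CPM, with Cubn at 43.4 CPM, Lrp2 at 72.1 CPM and Amn at 0. The same cell held the TE markers Gata3 at 222 CPM, Krt8 at 973 CPM and Krt18 at 40.1 CPM, and the EPI marker Nanog at 114 CPM. The difference of Apoa1 from control ICMs was 6.86 (SE 2.16, adjusted p = 0.0926), and it turned to -6.72 without embryo 8. Apob, Ttr and Rbp4 had 0 counts in all 19 MUT cells.

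Against EPI 3 of 6 members were called, where 4.92% of all genes were. Low EPI levels were among the values the members were chosen on, so nothing is read from that count. Lrp2 rose by 7.95 (SE 1.19, adjusted p = 0.00549) from at most 3.41 CPM in EPI, and Lrpap1 rose by 2.04 (SE 0.30, adjusted p = 0.00475) from 218 to 442 CPM in EPI. Apoe fell by 0.65 (log2 difference -0.65, SE 0.16, adjusted p = 0.0486). Each of the 3 calls was lost against WT EPI alone (adjusted p 0.0894, 0.140 and 0.150, with 2 embryos a side). That on Lrp2 was lost without MUT embryo 3 (adjusted p = 0.0678) and that on Lrpap1 without MUT embryo 8 (adjusted p = 0.0679) and with cells weighted equally (adjusted p = 0.0556). The call on Apoe was lost without either MUT embryo and in 7 of the 8 leave-one-out fits, with adjusted p from 0.00167 to 0.253 over the alternatives.

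Dab2 differed from EPI by 3.85 (SE 0.99, adjusted p = 0.0575), Cubn by 4.51 (SE 1.57, adjusted p = 0.141) and Amn by -2.31 (SE 2.23, 95% interval -6.68 to 2.05, adjusted p = 0.663). Lrp2, Cubn, Dab2 and Lrpap1 lay above all EPI sums and Apoe below them, 5 of 6 without overlap against a background of 24.1%. Nothing is read from this count either. Amn overlapped, at 0.135 to 28.6 CPM in EPI. The comparisons with whole ICMs, EPI and PrE share the 2 MUT embryos and are not independent of each other.

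Beside normal PrE the members stood at different distances, given here without a test. Lrp2 in MUT lay inside the wide PrE range (log2 difference -1.31, SE 1.08). Lrpap1, Dab2, Cubn and Amn lay below all 6 PrE sums, with log2 differences of -1.46 (SE 0.27), -2.40 (SE 0.60), -4.85 (SE 0.85) and -8.01 (SE 1.39). These were 4 of 8 members without overlap, where the background was 22.1%. PrE levels were among the values the members were chosen on, so nothing is read from that count. Apoe overlapped with PrE (-0.41, SE 0.41).

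**Figure D3:**
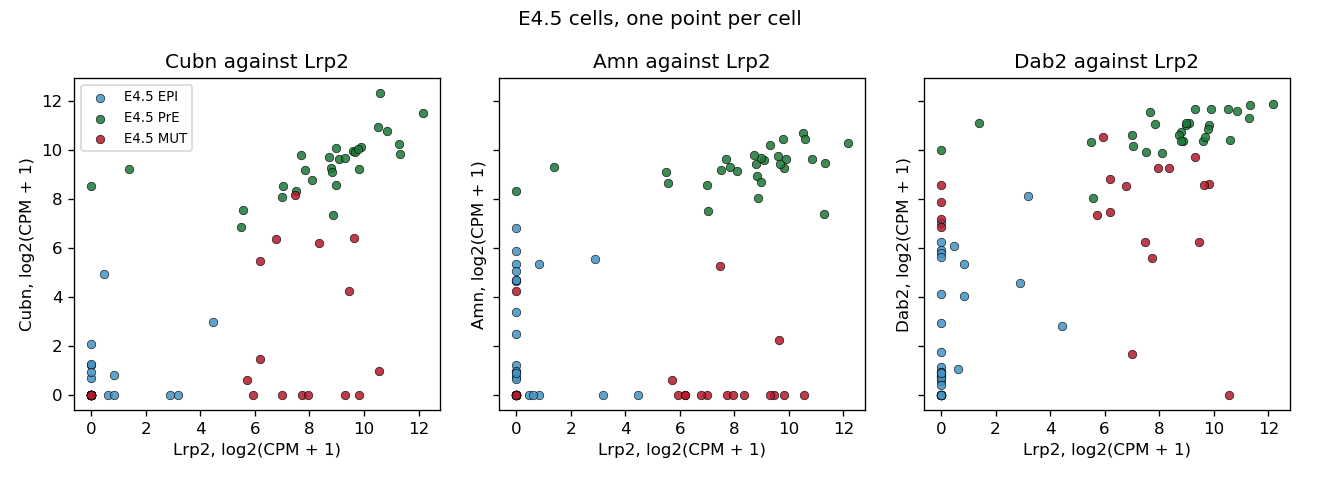
Single E4.5 cells with Lrp2 on the horizontal axis and Cubn, Amn or Dab2 on the vertical axis of the 3 panels, all as log2(CPM + 1). Each point is 1 cell, coloured as EPI, PrE or MUT; MUT cells reach the PrE range of Lrp2 and Dab2, while Amn in MUT cells does not exceed 37.7 CPM and the lowest PrE cell is at 166 CPM.

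Cell by cell, megalin occurred in part of the MUT cells without Cubn and Amn, but mostly together with Dab2. Lrp2 was at 10 CPM or more in 15 of 19 MUT cells (78.9%, exact interval 54.4 to 93.9%), with a median of 126 CPM and a maximum of 1495 CPM. In 9 of 19 cells both Cubn and Amn were under 10 CPM beside it, a state found in 0 of 29 PrE cells, in 1 of 37 EPI cells, in 13 of 29 E3.5 MUT cells and in 13 of 58 E3.5 WT/HET cells. Lrp2 and Dab2 were together in 13 of 19 MUT cells of both embryos. These shares describe cells of 2 MUT embryos, and their intervals do not cover the spread between embryos. A single MUT cell of embryo 3 held Lrp2 (177 CPM), Cubn (288 CPM), Amn (37.7 CPM) and Dab2 (73.9 CPM) at once. That cell held Gata6 at 364 CPM and Sox17 at 0.770 CPM, with Gata4 and Pdgfra at 0. Its EPI marker Nanog was at 1227 CPM, and its TE markers were Krt18 at 1119, Krt8 at 783 and Gata3 at 2.31 CPM. It was the highest MUT cell for Cubn and for Amn.

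The 2 stages of MUT embryos are set side by side without a test. E4.5 MUT exceeded all E3.5 MUT embryos in Lrp2 (log2 difference 2.05, SE 0.60), Cubn (3.45, SE 1.77) and Apoe (4.75, SE 0.29), 3 of 7 members, a share near the background of 41.5%. Without MUT embryo 3 or 8 the number was 6 or 5. Dab2 (0.16, SE 0.43), Lrpap1 (0.19, SE 0.31) and Amn (0.09, SE 2.29) overlapped, and the sign of all 3 turned within the leave-one-out fits (-0.55 to 0.63, -0.33 to 0.57 and -7.50 to 1.12). For Apoe the matching values were 4.24 from E3.5 WT/HET to EPI and 4.01 to PrE.

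The difference between the MUT effects at the 2 stages was tested directly, with whole ICMs as controls at E4.5. It was called for Amn (-9.56, SE 1.79, adjusted p = 0.00356) and Dab2 (-4.06, SE 0.99, adjusted p = 0.0205), 2 of 9 members in the test against 5.46% of all genes. These control ICMs hold the PrE cells whose levels were in view when the members were chosen, so nothing is read from that count. Amn entered this test through the E4.5 control ICMs, and its E3.5 levels rest on 102 counts in 4 MUT and 33 counts in 7 WT/HET embryos. The mean of Dab2 in control ICMs was 46.8 CPM at E3.5 and 915 CPM at E4.5, while that of MUT ICMs was 290.2 and 352 CPM. Values for Lrp2 (-2.51, SE 1.40, adjusted p = 0.327), Cubn (-2.34, adjusted p = 0.497), Lrpap1 (-1.02, adjusted p = 0.121) and Apoe (0.58, adjusted p = 0.523) did not pass. Against WT embryos alone the adjusted p was 0.0730 for Amn and 0.0801 for Dab2. Dab2 was also uncalled without MUT embryo 3 (adjusted p = 0.143) or 8 (0.0532) and with cells weighted equally (0.267).

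Marker levels moved with the E4.5 genotype. The 9 TE markers summed to 3479.7 and 4688 CPM in the MUT embryos with none at 0, against 42.5 to 258 CPM in control ICMs and 82.0 to 479.8 CPM in PrE, where Elf5 and Krt7 were at 0. The 9 PrE markers summed to 302 and 313 CPM in MUT against 416 to 2088 CPM in control ICMs, with Sox7 and Foxa2 among those at 0 in MUT. The 6 parietal endoderm markers summed to 755 and 1239 CPM in MUT and to 799 to 2150 CPM in control ICMs. What part TE cells have in the levels of Lrp2, Dab2 and Lrpap1 in MUT ICMs was not tested.

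Other receptors were taken from a list of 27 genes of the family of megalin, scavenger receptors and similar carriers. At E3.5 2 of 18 tested were called, where 6.18% of all genes were, and both were higher in MUT. The folate receptor Folr1 rose from 213 ± 60.3 to 456 ± 158 CPM (log2 difference 1.16, SE 0.24, adjusted p = 0.0141), and Igf2r, the mannose 6-phosphate receptor, from 65.1 ± 23.9 to 167 ± 83.8 CPM (1.42, SE 0.33, adjusted p = 0.0265). The list's median difference was 0.11 at E3.5 and -0.09 against control ICMs, near the medians of all genes (-0.02 and -0.10). Between lineages the transferrin receptor Tfrc was lower in PrE (7.69 ± 8.28 against 89.5 ± 52.5 CPM in EPI), and Lrp4 stood at 98.5 ± 28.2 CPM in E4.5 MUT against 0.809 ± 1.87 CPM in PrE.

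The next list held 42 clathrin adaptors and endocytic proteins. At E3.5 2 of 41 were called, near the share of all genes and both lower in MUT, namely the membrane-bending protein Bin1 (1.38 ± 1.13 against 13.3 ± 8.01 CPM, -3.20, SE 0.87, adjusted p = 0.0487) and Fcho1, which was at 0 in MUT and at 2.24 ± 1.95 CPM in controls (adjusted p = 0.0439). At E4.5 Dab1, a relative of Dab2, was called lower than in control ICMs (0.0405 ± 0.0572 against 18.2 ± 15.9 CPM, adjusted p = 0.0285, 1 of 42) and than in EPI (25.9 ± 19.5 CPM, adjusted p = 0.0208), and Rab11a, a GTPase of recycling endosomes, rose from 158 ± 17.7 CPM in EPI to 583 ± 34.5 CPM (1.87, SE 0.18, adjusted p = 0.000513). Fcho1 at E3.5 and Dab1 at E4.5 entered these tests through the control groups alone. Over all genes edgeR called 7.37% against control ICMs and 4.92% against EPI. DESeq2 called 6 of the list at E3.5, 7 against control ICMs and 6 against EPI. Its numbers over all genes were 1834 of 22487, 2736 of 20405 and 1949 of 19005. In normal PrE 4 of 41 were without overlap with EPI, near the background of 9.01%, and all 4 were higher in PrE. Among them were the endosomal chloride transporter Clcn5 (60.7 ± 28.7 against 6.71 ± 8.34 CPM) and the early endosome tether Eea1 (35.2 ± 9.88 against 3.83 ± 3.20 CPM). The endocytic motor Myo6 was at 90.8 ± 61.0 against 6.42 ± 5.65 CPM, with overlap. The median PrE minus EPI difference of this list was 0.62 on the log2 scale against -0.03 over all genes.

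Carriers and lipoprotein assembly genes other than the members numbered 41. At E3.5 0 of the 12 tested were called by edgeR and 0 by DESeq2, and 3 had an unadjusted p under 0.05. Against control ICMs at E4.5 3 of 25 were called, where 7.37% of all genes were. All 3 had 0 counts in MUT and entered the test through the controls. Stra6, the receptor that takes up retinol from retinol binding protein, was at 55.6 ± 48.3 CPM in control ICMs (at least 546-fold lower in MUT with the same floor of 3 counts, adjusted p = 0.0122). Apom was at 34.8 ± 29.9 CPM (adjusted p = 0.0149) and Apod at 10.6 ± 3.59 CPM (at least 104-fold lower, adjusted p = 0.00762). Stra6 was a gene of PrE, at 109 ± 86.7 CPM against 0.0135 ± 0.0331 CPM in EPI, while lipoprotein lipase (Lpl) was higher in EPI (55.0 ± 34.98 against 2.44 ± 4.87 CPM). Against EPI P4hb, the disulfide isomerase that is also a subunit of the lipoprotein transfer complex, rose to 1559 ± 413 CPM from 831 ± 119 CPM (0.89, SE 0.20, adjusted p = 0.0328) and Apod fell to 0 (adjusted p = 0.0120), as the 2 calls of 20. Apod entered that test through EPI alone. Over all genes 4.92% were called against EPI.

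The last list held 29 endoderm transcription factors. Against control ICMs 5 of 25 were called lower and 1 higher, where 7.37% of all genes were called in either direction. Of these, Sox7 and Foxa2 entered the test through the controls alone and Nr2f2 through the MUT embryos alone. Sox7 and Foxa2 were at 0 counts in MUT and at 82.5 ± 43.3 and 19.5 ± 17.8 CPM in control ICMs (adjusted p = 0.00136 and 0.0105), and Nr2f2 stood at 6.66 ± 1.22 against 0.00833 ± 0.0204 CPM (adjusted p = 0.0149). Against EPI Klf6, Eomes and Cebpa rose and were the 3 calls of 18, where 4.92% of all genes were called. At E3.5, where 6.18% of all genes were called, Hnf4a fell from 24.2 ± 13.1 to 0.500 ± 1.00 CPM (-5.39, SE 1.15, adjusted p = 0.0162, 1 of 21). Hnf4a entered that test through the controls alone. Of the PrE marker list at E3.5 the basement membrane collagen Col4a1 alone was called, higher in MUT (73.5 ± 4.76 against 17.7 ± 7.18 CPM, 2.11, SE 0.30, adjusted p = 0.00268, 1 of 5). At E4.5 Lama1, its laminin companion, fell to 70.9 ± 7.74 from 528 ± 213 CPM in control ICMs (-2.86, adjusted p = 0.00740).

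By edgeR the stage by genotype difference was called in these lists together at about the share of all genes (5.46%). It was lower for Numbl of the adaptors (adjusted p = 0.0388), for Apom of the carriers (adjusted p = 0.0172), and for Foxq1 and Gata4 of the transcription factors (adjusted p = 0.00757 and 0.0338), and higher for Nr5a2 (4.06, SE 1.14, adjusted p = 0.0417). DESeq2 called 6 of the 42 adaptors, 8 of the 41 carriers and 7 of the 29 transcription factors. Over all genes with any count it called 1932 of 24772. That total holds many genes with few counts, so the shares rest on unlike bases and nothing is read from them. Of the 23 receptors tested 0 were called by edgeR and 1 by DESeq2, and 2 had an unadjusted p under 0.05.

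Genes whose level was most like a member's were sought by Pearson correlation of log2 CPM over 25 sums (11 E3.5 embryos, 6 EPI, 6 PrE and 2 E4.5 MUT) among 6017 genes with a mean of 20 CPM or more. These sums share plates and embryos, and the values are descriptions. Lrp2 was most like Dab2 (r = 0.913), the cathepsin Ctsz (0.878) and Lrpap1 (0.875), and less like Cubn (0.735) and Amn (0.412). Cubn was most like Lamb1 (0.901), Dkk1 (0.899) and Pga5 (0.880), and Amn was most like Pdia6 (0.891), Fkbp11 (0.882) and Lmf2 (0.882). For Dab2 the first were Lrp2, Fmr1nb (0.890) and Ctsz (0.885), for Lrpap1 they were Slc7a6 (0.927), Col4a1 (0.920) and Ctsz (0.910). Apoe was most like Samm50 (0.967), Uqcr11 (0.961) and Gm10123 (0.957), and Apoa1 like Pramel5 (0.880), Tat (0.878) and Ctsd (0.849).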

How the data were processed

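Single ICM cells of 19 mouse blastocysts (Smart-seq2, 125 bp read pairs) were used. To make the values, the authors aligned reads to GRCm38 (mm10) with STAR and counted them per Ensembl gene with HTSeq, as the methods and the submitters' processing notes name them. The values deposited by the authors are raw counts, whole numbers without normalization. Over all cells 4.72% of read pairs matched no gene, 8.65% were ambiguous between genes and 32.3% were aligned more than once, and these rows were left out of library sizes. Multiply aligned reads are in no count, so genes with near-identical copies are understated. Symbols came from a GRCm38 annotation with a record for 49412 of 49671 rows. No 2 cells held identical values. Groups came from the labels, and the embryo of each cell from the cell table of the study.

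Counts were summed per embryo (medians of 1318327 to 1772045 per cell, so that a level of 1 CPM in a cell rests on 1 or 2 counts) and fitted with edgeR 4.0.16 (R 4.3.3, limma 3.58.1), with TMM scaling, filterByExpr, the quasi-likelihood F test and Benjamini-Hochberg adjustment over all tested genes at 0.05. SE was derived from the fold change and its F value, and intervals are 95%. One TMM scaling over all sums gave the CPM. Comparisons defined by lineage or stage carry no p. Shares of cells were compared with exact permutation tests (scipy 1.17.1). A group at 0 counts was set to a floor of 3 counts over the group. The p-values measure the spread between embryos. Each of the 6 control embryos at E4.5 gave both an EPI and a PrE sum, whose deviations from the lineage means correlated at 0.00911 to 0.0646, and embryo was a block in an alternative only. The members, lists and tests were chosen with earlier results of these data known. The genes named are all 10 members, Pou5f1, up to 3 called genes per list and direction by adjusted p (in untested comparisons the 3 largest differences of genes at 20 CPM or more, of which a selection is given) and the 3 genes most like each member. Krt18, Krt8, Gata3, Nanog, Gata6, Gata4, Sox17 and Pdgfra in single cells were picked once their values had been seen. The alternatives tried were a DESeq2 1.42.0 fit, DESeq2 size factors within edgeR, all genes kept whatever their counts, equal weighting of cells with limma-trend on log2(CPM + 1), removal of cells under 500000 counts, WT embryos as the only controls, each embryo left out, and for shares a minimum of 5 counts or 1 CPM and thinning to 500000 counts (84 of 87 E3.5 cells). Tests were checked on simulated data. Some items are not reported here.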

Additional observations from a re-analysis of the deposited data

Results flagged for a closer look

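In 31 sets of 4, 6 or 7 embryo values 5 single embryos stood apart from the rest of their group by Dixon's criterion, where chance gives about 1 in 20. Apoa1 in PrE was 7.35 CPM in embryo 7, with the next embryo at 2.01 CPM. Apob was 4.15 CPM in E3.5 MUT embryo 10 (next 0.519 CPM) and 2.84 CPM in E3.5 WT embryo 9 (next 0.524 CPM). Cubn in EPI was 4.62 CPM in embryo 5 (next 1.14 CPM). Ttr was 0.858 CPM in E3.5 MUT embryo 17, from 10 counts in 1 cell, and 0 in the other 3 MUT embryos. All 5 values rest on few cells.

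The MUT minus control difference differed between the stages in the interaction test for Amn (-9.56 on the log2 scale, adjusted p = 0.00356 by edgeR) and Dab2 (-4.06, adjusted p = 0.0205). The E4.5 control ICMs hold the PrE cells on whose levels the members were chosen, and Amn entered the test through them. Both calls were lost against WT embryos alone (adjusted p = 0.0730 and 0.0801 by edgeR). That on Dab2 was also lost with cells weighted equally (adjusted p = 0.267 by limma-trend).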

How the results depend on the processing

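The numbers of members called, or without overlap, stayed within 1.5 times of the reported number in 130 of 150 alternatives. At E3.5 (reported 1) DESeq2 called 4, equal weighting of cells 3 and WT controls alone 3, and single embryos left out gave 1 to 3. Against whole ICMs (reported 1) DESeq2 called 3, no filter 2, equal weighting 2 and WT controls alone 0, with 1 to 2 by leaving out embryos. Against EPI (reported 3) the numbers were 5 with DESeq2, 0 against WT alone and 1 to 4 by leaving out embryos. For the interaction (reported 2) they were 1 with equal weighting, 0 against WT alone and 1 to 3. Between E3.5 WT/HET and EPI 5 members rather than 3 had no overlap against WT alone, and between MUT stages (reported 3) 3 to 6 when embryos were left out. Among the shares (reported 0) 0 to 1 passed, with Lrp2 at 45.1 points without HET embryo 16.

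Signs turned for Apoa1 at E3.5 (-0.50 with equal weighting, -0.17 without MUT embryo 10, -0.04 without 17, -0.17 to 0.49 over all embryos left out), for Lrp2 against whole ICMs (2.37 with equal weighting, 0.30 against WT alone, 0.34 without control 2, 0.22 without MUT embryo 8, -1.03 to 0.34 over all), for Dab2 against whole ICMs (1.603 with equal weighting), for Apoa1 without MUT embryo 8 (-6.72 to 8.21 against whole ICMs and -6.53 to 7.96 in the interaction over all embryos left out), for Lrp2 in the interaction (0.17 with equal weighting), and for the share of Apob at E3.5 (-2.16 points from 1 CPM, -1.09 thinned, -1.02 against WT alone, -6.33 without MUT embryo 10, up to 7.01 over all). Leaving out embryos also turned the sign between the MUT stages for Dab2 (-0.55 to 0.63), Lrpap1 (-0.33 to 0.57), Amn (-7.50 to 1.12) and Apoa1 (-10.88 to 2.90), and for Apoa1 in MUT against PrE (-6.94 to 7.44). The cause was not tested. Equal weighting also moved the median of all genes at E3.5 to -0.23. Where 1 MUT embryo remained, it was assumed to vary like the controls.

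With the embryo as a replicate block, which pairs EPI and PrE, the differences were 9.67 for Lrp2, 9.65 for Cubn, 6.59 for Amn, 6.75 for Dab2, 3.57 for Lrpap1 and -0.31 for Apoe, with no sign turned.

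Only 2 MUT embryos were studied at E4.5, and the interval of Lrp2 against whole ICMs leaves differences of several-fold either way.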
